A study of Mus musculus with 3 samples.

Results

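The genes described here encode collagens, laminins, matrix glycoproteins and the proteoglycans of the brain matrix, together with Cemip, a protein needed for the breakdown of hyaluronan. They were chosen as a list of 35 gene symbols, and all 35 were found among the 30559 genes of the deposited matrices. The list holds 8 fibrillar collagen genes, 5 basement membrane collagen genes, 5 other collagen genes, 2 transmembrane collagen genes, 7 laminin or nidogen genes, 3 matrix glycoprotein genes, 4 lectican genes and Cemip.

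The extracellular matrix of the brain differs from that of connective tissue. It holds little fibrillar collagen, and much of it is a mesh of hyaluronan bound by the lecticans, which are chondroitin sulfate proteoglycans, and crosslinked by the tenascins. Basement membranes, built from type IV collagen and laminin networks that nidogen and perlecan join, lie around blood vessels and under the pia, and in the subventricular zone (SVZ) they also form branched structures that stem cells touch. Collagen genes encode chains that assemble into trimers within the cell, so the mRNA of one chain does not give the amount of the secreted trimer.

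Single-nucleus RNA was measured in 3 libraries of differentiated neurospheres, which are clusters of cells grown from SVZ neural stem cells of newborn C57BL/6 mouse pups: control, CBP-ablated (genotype CBPf/f with Cre) and p300-ablated (genotype p300f/f with Cre). CBP and p300 are the paralogous lysine acetyltransferases encoded by Crebbp and Ep300, and the comparison asks what the loss of either does to the differentiating cultures. Per the methods, Cre with an mCherry reporter was delivered by lentivirus and the control cultures received a lentivirus with an RFP reporter, whereas the label of each of the 3 samples gives tamoxifen as the treatment. The line of mice behind the control cultures is not given in the sources used here. Each library came from a pool of about 15 cultures at day 15 in vitro, and nuclei were sorted by flow cytometry before 16000 were loaded. The cultures were plated on Matrigel, a basement membrane extract, which adds matrix protein to the dish that counts of RNA do not measure.

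Each condition was measured as 1 library, and conditions could not be tested against each other. Values below are unique molecular identifiers (UMIs), each standing for 1 captured RNA molecule, summed over nuclei and scaled to a common total of UMIs (CPM). A difference is given as a log2 ratio to the control library. Where 3 values follow each other, they are those of the control, the CBP-ablated and the p300-ablated library, in this order. Intervals are 95% and cover counting error only, not the variation between cultures. Both ablated libraries were compared with the same control library, so the 2 sets of ratios are not independent. Whole-library sums mix cell types, and fewer nuclei of a type cannot be told apart in them from less RNA per nucleus. CPM compare 1 gene between libraries or nuclei; they are not corrected for length and do not rank genes.

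The libraries held 4884, 3017 and 4648 nuclei, with 16312170, 12748336 and 18876682 UMIs and medians of 3219, 4016 and 3902 UMIs per nucleus. Only 11 nucleus barcodes occurred in more than 1 library. Crebbp had 335, 369.5 and 365 CPM and Ep300 had 114, 136 and 115 CPM, so neither was lower in the library where it was targeted. A tag from the 3′ end or an intron lies outside the floxed exon. For Ep300 the paper, citing earlier work, states that recombination leaves no mature mRNA. Reads of exons and introns were counted together, which does not separate mature from unspliced RNA. These levels alone thus do not show how complete the ablation was, which was not tested here. The paper reports a check that both proteins were removed in the differentiating cultures. Its supplementary images show antibody staining for CBP. Nuclei were clustered without the matrix genes, and clusters were named from marker lists, most of which the study drew from these same libraries. Of 12 clusters, 10 passed their list: nuclei like neuronal or oligodendrocyte progenitors (NPC/OPC-like), radial glia or stem cells (RGC/PSC-like), glial progenitors, astrocytes, committed oligodendrocyte precursors, the study's cluster 5 (Kcnj6 and Nell2), oligodendrocytes, neurons, proliferating cells and microglia. The astrocyte-like class held 1279 control nuclei and no nucleus of either ablated library, while the 6 markers of the astrocyte list summed to 4574, 906 and 1881 CPM. For that reason the ratio over nuclei outside the astrocyte-like class is plotted beside the whole-library ratio for each matrix gene with enough UMIs. In the text it is given for some of these genes only. A whole-library ratio that stands alone includes the astrocyte-like nuclei of control. NPC/OPC-like nuclei made up 22.4%, 12.9% and 38.3% of the 3 libraries. Rankings of classes below are among the named classes and leave out unnamed clusters 7 and 11. Some classes were made of unlike clusters in the libraries. Of the 374, 304 and 510 cluster-5-like nuclei, 238, 19 and 465 kept that name when clustering was repeated with a second seed, and 133, 279 and 41 fell into an unnamed cluster led by Gpr149 and Draxin. At a clustering resolution of 1.2, which gives finer clusters, the NPC/OPC-like class split into clusters that held 596, 76 and 1397 and 480, 311 and 356 of its nuclei. The second of these clusters also took in 129, 277 and 44 cluster-5-like nuclei. Ratios of the CBP-ablated library within these classes thus set partly different nuclei side by side. The same resolution separated a glial progenitor-like cluster of 16, 10 and 100 nuclei from a larger one of 429, 371 and 465.

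The 35 genes together gave 94398, 78335 and 141733 UMIs, or 5787, 6145 and 7508 CPM. Most of these UMIs belonged to Tnr, which held 64.0%, 67.4% and 66.3% of them. Without Tnr the sums were 2082, 2002 and 2528 CPM, and without Tnr, Col11a1 and Vcan they were 1034, 1010 and 1191 CPM.

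Connective-tissue matrix was close to missing from these nuclei. Col1a1, a chain of type I collagen, had 1, 2 and 1 UMIs, and its partner chain Col1a2 had 10, 6 and 10. Col3a1, the type III collagen of vessels and skin, had 1, 4 and 1 UMIs. The type VI collagen genes Col6a1 and Col6a2 had 2, 9 and 17 and 3, 13 and 15 UMIs, and 27 of the 31 Col6a2 UMIs lay in oligodendrocyte-like nuclei. Some markers of fibroblasts and vessels were at or near 0 as well: Dcn had 5, 3 and 1 UMIs, Lum 0, 0 and 1, and the endothelial Cldn5 and the pericyte gene Kcnj8 had none. Other markers of the same lists did have UMIs. The whole lists had 13.7, 6.67 and 5.72 CPM over 8 fibroblast or leptomeningeal markers, 42.4, 29.8 and 26.8 CPM over 6 mural markers and 45.2, 65.3 and 37.2 CPM over 7 endothelial markers. The 6 microglia markers, whose class was found here, had 140, 75.5 and 71.2 CPM. These sums alone thus do not show that fibroblasts or vessel cells were missing.

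Of the 35 genes, 27 had at least 100 UMIs in the control and an ablated library together and entered the counts. The other 8 were the 5 just named, Lamb1 (23, 15 and 14 UMIs), Nid1 (42, 12 and 21) and Acan (20, 9 and 22), and no ratio is read from them. In the CBP-ablated library, 1 of the 27 genes was at least 2 times higher than control, Col25a1, where 2.89% of all 11883 genes counted were. At least 2 times lower were 2 of them, Col5a1 and Lama5, against 3.99% of all genes. In the p300-ablated library 2 of 27 were at least 2 times higher, Cemip and Fn1, against 0.694% of 12247 genes, and 2 were at least 2 times lower, Col9a1 and Col23a1, against 2.12%. One gene of 27 is 3.7%, so each count differed from its background by few genes.

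Outside the astrocyte-like class the counts were 1 higher (Col25a1, background 1.91%) and 1 lower (Col5a1, 2.13%) in the CBP-ablated library. They were 1 higher (Fn1, 0.362%) and 1 lower (Col9a1, 0.943%) in the p300-ablated library. The median log2 ratio of the 27 genes was 0.14 and 0.21 in the CBP-ablated and p300-ablated libraries over all nuclei, beside medians of 0.06 and −0.04 over all genes counted. Outside the astrocyte-like class it was −0.09 and 0.06, beside 0.07 and −0.01. Over all nuclei, the counting intervals lay wholly above 0 for 11 of 27 genes and wholly below 0 for 11 in the CBP-ablated library, where those of 30.4% and 22.6% of all genes counted did. In the p300-ablated library 12 lay above and 3 below, beside 22.3% and 27.1% of all genes. An interval narrows with the UMIs of a gene, so these shares also follow how abundant genes are.

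**Figure D1:**
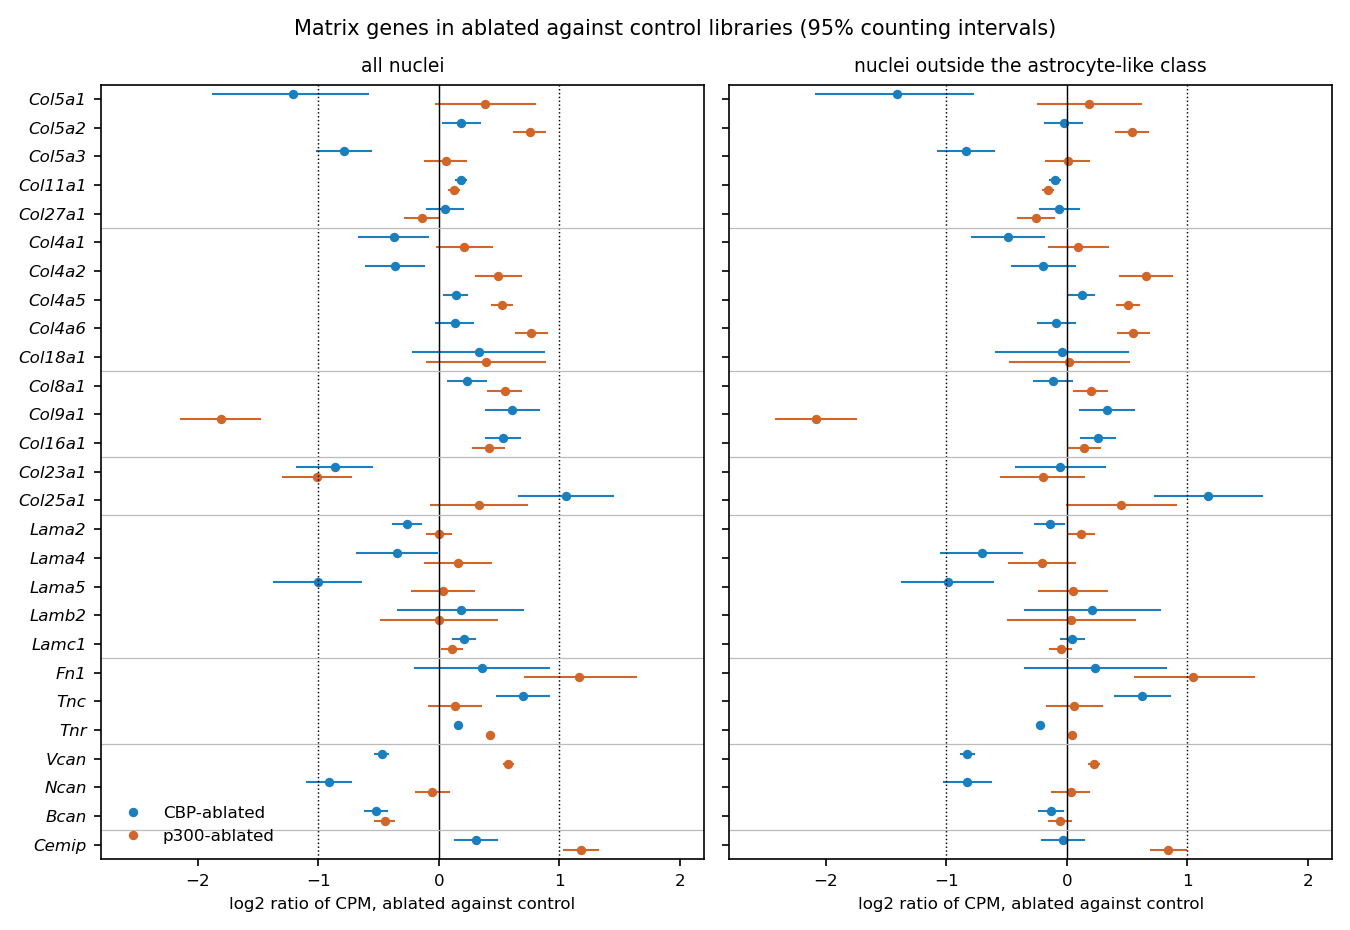
Log2 ratio of CPM in the CBP-ablated (blue) and p300-ablated (orange) library to control for the 27 matrix genes with enough UMIs, grouped by role, over all nuclei (left) and outside the astrocyte-like class (right). Points are ratios of 1 library to 1 library, bars are 95% counting intervals, and dotted lines mark 2 times; Col9a1 lies far to the left in the p300-ablated library only (−1.81 and −2.08).

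The basement membrane collagens were measured as 5 genes, and in the p300-ablated library all 5 had ratios above 0, with a median of 0.49 and 3 intervals above 0. A p300 interval above 0 was found for 22.3% of all genes counted. RGC/PSC-like nuclei, in which Col4a5 and Col4a6 were highest, made up 8.66%, 11.9% and 16.6% of the nuclei. Type IV collagen is a network of trimers made from chains whose genes sit in pairs, head to head on opposite strands. Col4a1 (8:11198423-11312826 in GRCm38, minus strand) and Col4a2 (8:11312805-11449287, plus strand) encode the common chains. Col4a5 (X:141475385-141689234, plus strand) and Col4a6 (X:141165403-141474076, minus strand) encode chains of more restricted basement membranes. The RefSeq starts of Col4a1 and Col4a2 were 21 bases apart and those of Col4a5 and Col4a6 were 1343 bases apart.

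Col4a1 had 16.7 CPM in control against 12.9 with CBP ablated and 19.4 with p300 ablated. Its log2 ratios were −0.37 (interval −0.66 to −0.09) and 0.21 (−0.02 to 0.44). Col4a2 had 23.4, 18.2 and 32.8 CPM, with ratios of −0.36 (−0.60 to −0.12) and 0.49 (0.31 to 0.68). For both common chains the CBP-ablated library was the lowest and the p300-ablated library the highest of the 3. With the astrocyte-like class left out, the Col4a2 interval in the CBP-ablated library included 0 (−0.20, −0.46 to 0.07), while that of Col4a1 did not (−0.49, −0.79 to −0.19).

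Col4a5 had 117, 129 and 169 CPM, with ratios of 0.14 and 0.53 (0.45 to 0.61). Col4a6 had 48.1, 52.6 and 81.9 CPM, with ratios of 0.13 and 0.77 (0.64 to 0.89). In both genes the p300-ablated library stood apart from the other two, and outside the astrocyte-like class its ratios were 0.51 and 0.55. Directly against the p300-ablated library, the CBP-ablated library was lower, with log2 ratios of −0.39 (−0.47 to −0.30) for Col4a5 and −0.64 (−0.77 to −0.51) for Col4a6. Col18a1, which encodes the core protein of a heparan sulfate proteoglycan that releases endostatin, had 3.68, 4.63 and 4.82 CPM, and both of its intervals included 0.

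Col4a5 and Col4a6 shared their leading cell classes in each library. Their levels were highest in RGC/PSC-like nuclei and next highest in glial progenitor-like nuclei in all 3 libraries. This order is not particular to the pair. Col5a1, Col5a2, Col5a3, Lama5 and Tnc, on other chromosomes, had it in each library as well. In RGC/PSC-like nuclei Col4a6 had 255 CPM in control against 253 with CBP ablated and 256 with p300 ablated, and both intervals there included 0. In glial progenitor-like nuclei it had 107.5 CPM in control (152 UMIs in 93 nuclei) and 118 and 218 CPM in the ablated libraries (168 UMIs in 96 nuclei and 444 UMIs in 168 nuclei), a p300 ratio of 1.02 (0.75 to 1.30). Without the nucleus of highest count in each library that ratio was 1.06. At resolution 1.2, however, 263 of the 444 UMIs lay in a smaller glial progenitor-like cluster of 16, 10 and 100 nuclei. In the larger glial progenitor-like cluster Col4a6 had 92.8, 113 and 108 CPM, a p300 ratio of 0.22 (−0.13 to 0.57). The part of the size of the smaller cluster in the Col4a6 ratio was not tested. The larger Col4a6 ratios of the p300-ablated library in committed oligodendrocyte precursor-like nuclei (2.56) and microglia-like nuclei (5.72) rested on single nuclei, which held 22 of 33 and 23 of 26 UMIs.

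Col4a5 was above control in the p300-ablated library in each of the 7 classes with enough UMIs, and the interval lay above 0 in 4, the microglia-like class among them (19 UMIs). Single nuclei held 13 of 41 UMIs in the committed oligodendrocyte precursor-like class and 9 of 19 in the microglia-like class. Without the nuclei of highest count both of these intervals included 0 (−0.098 to 1.591 and −0.346 to 2.495). In glial progenitor-like nuclei Col4a5 had 267, 346 and 403 CPM, and the intervals of both ratios, 0.37 and 0.59, lay above 0. Col4a2 was above control in the p300-ablated library in 5 of 5 classes, with 9.69 in control against 21.6 CPM in NPC/OPC-like nuclei (1.15, 0.62 to 1.73) and 12.3 in control against 27.1 CPM in cluster-5-like nuclei (1.13, 0.31 to 2.03; 0.88, 0.01 to 1.84 with the second seed). For Col4a1 no class interval of the p300-ablated library excluded 0. In glial progenitor-like nuclei the p300 interval thus lay above 0 for Col4a5 and Col4a6 and included 0 for Col4a1 and Col4a2. For Col4a6 it included 0 in the larger glial progenitor-like cluster of resolution 1.2, and Col4a5 was not compared there.

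Genes on other chromosomes shared the leading classes of Col4a5 and Col4a6, as given above. The sequences before the starts of Col4a5 and Col4a6 are shown because this gene pair, which lies within a short stretch of the X chromosome, had like patterns over classes. They are RefSeq sequences on GRCm38.p6, chrX:141475169-141475384 (plus strand) for Col4a5 and chrX:141474077-141474326 (minus strand) for Col4a6, read 5′ to 3′ in the direction of each gene. Capitals mark the core of a GC box, whose letters are GGGCGG, and the usual form of the TATA box, whose letters are TATAAA, wherever either strand holds them. A GC box of the other strand appears as CCGCCC.
Col4a5: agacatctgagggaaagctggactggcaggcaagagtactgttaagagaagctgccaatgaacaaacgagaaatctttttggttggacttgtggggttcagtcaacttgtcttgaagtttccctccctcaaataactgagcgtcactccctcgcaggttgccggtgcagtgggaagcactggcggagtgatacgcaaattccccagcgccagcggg
Col4a6: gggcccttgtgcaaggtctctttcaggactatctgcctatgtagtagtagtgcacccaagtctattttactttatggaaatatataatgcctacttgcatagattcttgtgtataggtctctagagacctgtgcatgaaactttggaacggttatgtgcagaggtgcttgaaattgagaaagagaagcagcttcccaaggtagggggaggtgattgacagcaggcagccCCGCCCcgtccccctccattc
The printed Col4a5 stretch stops at the annotated start of the gene, 34 bases before the RefSeq start, and the 1 GC box of its window lies in those 34 bases. Of the 35 genes, 30 matched a RefSeq promoter entry. GGGCGG occurred on either strand in the 250 bases before the start of 23 of these 30 genes and of 32.7% of 32851 promoters, TATAAA occurred in 4 of 30 and 12.4%, and TGACGTCA, the site of CREB factors, occurred in 0 of 30 and 1.55%. A gene with more than 1 promoter entry was counted if any of them held the motif. The background counts single promoters, so the 2 shares are not fully alike. GC-rich promoters hold GGGCGG by composition, and such matches describe letters, not binding.

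The laminins form cross-shaped trimers of an alpha, a beta and a gamma chain. Of the 3 alpha chains measured, Lama2, found in laminins of muscle, nerve and glia, had 100.2, 83.5 and 100.3 CPM. Its ratios were −0.26 (−0.38 to −0.15) and 0.00. Lama2 was highest in glial progenitor-like nuclei in each library (347, 289 and 338 CPM), and there the CBP ratio was −0.27 (−0.46 to −0.07). In oligodendrocyte-like nuclei, in contrast, Lama2 had 30.8 CPM in control and 62.9 with CBP ablated, a ratio of 1.03 (0.43 to 1.68) where 1.49% of genes in that class were at least 2 times higher.

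Lama5 (2:180176373-180225859, minus strand) encodes the broadly expressed alpha chain of epithelial and vascular laminins. It had 14.3 CPM in control against 7.14 with CBP ablated and 14.6 with p300 ablated, with ratios of −1.001 (−1.37 to −0.65) and 0.03 (−0.22 to 0.29). The CBP-ablated library was low, and the other two libraries overlapped. The CBP ratio lies at the 2-fold limit over all nuclei, and outside the astrocyte-like class its CBP ratio was −0.99. Both classes that hold most of the transcript showed the difference: 51.2, 23.0 and 48.9 CPM in RGC/PSC-like nuclei and 39.6, 17.6 and 27.5 CPM in glial progenitor-like nuclei, for CBP ratios of −1.16 and −1.17.

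Lama4, an alpha chain of vascular laminins, had 12.3, 9.65 and 13.7 CPM, and outside the astrocyte-like class its CBP ratio was −0.71 (−1.04 to −0.37). The common gamma chain Lamc1 had 131, 151 and 141 CPM, with ratios of 0.21 and 0.11 over all nuclei and 0.05 and −0.05 outside the astrocyte-like class. Lamb2, a beta chain of synaptic and renal laminins, had 4.29, 4.86 and 4.29 CPM and intervals that included 0. Of the 42 control UMIs of Nid1, which links laminin to type IV collagen, 36 lay in astrocyte-like nuclei. Of the 5 laminin genes counted, the 3 alpha chains were below control in the CBP-ablated library with intervals that excluded 0, as the intervals of 22.6% of all genes did, and the beta and the gamma chain were not below it.

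The fibrillar collagens counted were the type V chains, Col11a1 and Col27a1, minor collagens that set the diameter of fibrils elsewhere in the body. Col5a1 (2:27886425-28039514, plus strand) had 5.27, 2.27 and 6.89 CPM, from 86, 29 and 130 UMIs. Its CBP ratio was −1.21 (−1.87 to −0.59) over all nuclei and −1.41 (−2.08 to −0.78) outside the astrocyte-like class, while the p300 interval included 0. In RGC/PSC-like nuclei it had 22.4, 9.19 and 22.7 CPM and in glial progenitor-like nuclei 12.7, 4.21 and 8.85 CPM. These UMIs were spread over 81, 28 and 111 nuclei, with at most 2, 2 and 5 in 1 nucleus.

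Col5a3, another type V chain, followed the same order with 33.0, 19.2 and 34.4 CPM and ratios of −0.78 (−1.01 to −0.56) and 0.06. Its RGC/PSC-like levels were 136, 79.4 and 117 CPM. Col5a2 did not: it had 47.0, 53.6 and 79.3 CPM, with ratios of 0.19 and 0.75 (0.63 to 0.88). Without the astrocyte-like nuclei the Col5a2 ratios were −0.03 and 0.54 (0.41 to 0.67). Among the 3 type V chains, Col5a1 and Col5a3 were thus lower in the CBP-ablated library and Col5a2 was not. Of the Col5a2 UMIs, 67.4% came from RGC/PSC-like nuclei, where the p300 ratio was 0.10 with an interval that included 0. In glial progenitor-like nuclei it had 48.8, 73.1 and 84.1 CPM, with both intervals above 0.

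Col11a1, a chain of type XI collagen, was highest in committed oligodendrocyte precursor-like nuclei and next highest in NPC/OPC-like nuclei in each library. Among the named classes Col11a1 was lowest in oligodendrocyte-like nuclei, at 42.65, 45.0 and 38.76 CPM. It had 569, 647 and 622 CPM over all nuclei, and 2139, 1798 and 2411 CPM within the committed oligodendrocyte precursor-like class, and the highest single nuclei held 75, 63 and 66 UMIs. Its whole-library ratios were 0.19 and 0.13, but outside the astrocyte-like class they were −0.10 (−0.14 to −0.05) and −0.16 (−0.20 to −0.12). The sign of both Col11a1 ratios thus depended on whether the astrocyte-like nuclei were in the control sum.

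Col27a1, a fibrillar collagen of cartilage with a short triple helix, was nearly level over all nuclei at 48.2, 49.97 and 43.7 CPM. Its class ratios in the CBP-ablated library ranged from −2.27 to 0.64. In cluster-5-like nuclei it had 42.4, 8.77 and 81.7 CPM (55, 9 and 169 UMIs), ratios of −2.27 (−3.48 to −1.25) and 0.95 (0.50 to 1.41). Most CBP-ablated nuclei of that class were those of the Gpr149 cluster, in which Col27a1 had 100.1, 9.96 and 34.98 CPM from 57, 11 and 6 UMIs. The cluster-5-like nuclei of the second seed had 46.3, 27.0 and 83.9 CPM, the CBP-ablated level from 2 UMIs in 19 nuclei. In NPC/OPC-like nuclei it had 64.5, 29.9 and 49.95 CPM, a CBP ratio of −1.11 (−1.62 to −0.62) in a class where 1.01% of genes were at least 2 times lower. In the 2 NPC/OPC-like clusters of resolution 1.2 the CBP ratios were −1.86 (−3.51 to −0.60) and −1.52 (−2.06 to −0.998), the first from 5 UMIs. The second cluster included 129, 277 and 44 cluster-5-like nuclei, so its ratio also sets partly different nuclei side by side. In RGC/PSC-like nuclei Col27a1 was lower in both ablated libraries, with 25.6, 10.5 and 8.63 CPM. The oligodendrocyte-like nuclei went the other way, with 75.8 CPM in control and 118 with CBP ablated, where this class held 487 nuclei against 160. Of the 6 CBP class intervals, 4 lay below 0 and 1 above, while the whole-library interval included 0.

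Among the other collagens, Col9a1 had the largest p300 difference of the whole list. Col9a1 (1:24177610-24252684, plus strand) encodes a chain of type IX collagen, which sits on the surface of type II and XI fibrils. It had 317, 378 and 105 UMIs, or 19.4, 29.7 and 5.56 CPM. The p300 ratio was −1.81 (−2.14 to −1.48) over all nuclei and −2.08 (−2.41 to −1.75) outside the astrocyte-like class. The CBP ratio was 0.61 (0.39 to 0.83) and 0.34 (0.11 to 0.56). The CBP-ablated library was the highest and the p300-ablated library the lowest of the 3 in either sum.

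Col9a1 was a gene of the committed oligodendrocyte precursor-like nuclei, which held 68.9% of its UMIs, and it was among the 10 leading genes of that cluster although it was left out of the clustering. The class held 393, 610 and 235 nuclei. In these nuclei it had 119 CPM in control against 105 with CBP ablated and 49.0 with p300 ablated. The p300 ratio within the class was −1.28 (−1.73 to −0.84) in a class where 0.326% of genes were at least 2 times lower, and the CBP ratio was −0.18 (−0.44 to 0.09). After each nucleus was thinned to 1500 UMIs, 12.1%, 13.1% and 4.68% of the nuclei of the class held a Col9a1 UMI (31.6%, 30.3% and 16.6% before thinning). The thinned shares in microglia-like nuclei, which should lack the transcript, were 1.56% of 64 nuclei, 4.55% of 22 nuclei and 0 of 30 nuclei, the last of which allows up to 11.6% by the exact interval. Median depths of the microglia-like nuclei were 1134, 1010 and 1664 UMIs. In NPC/OPC-like nuclei the level was low and the p300 ratio was −1.89 (−2.83 to −1.01), from 17 UMIs against 33 in control.

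The same direction was found in the partner chain Col9a3, which is not among the 35 genes: 28.6 CPM in control and 11.97 with p300 ablated, a ratio of −1.26 (−1.49 to −1.02), and −1.05 outside the astrocyte-like class. The sequence before the RefSeq start of Col9a1 at the annotated start of the gene, chr1:24177360-24177609 on GRCm38.p6 (plus strand), is shown. It was chosen because this gene had the largest p300 ratio of the list. It was 43.6% GC, where the median of all promoters was 52.4%, and held none of the 3 motifs. The stretch before a further RefSeq start inside the gene was 56% GC and also held none of them. Which start these nuclei use was not tested.
Col9a1: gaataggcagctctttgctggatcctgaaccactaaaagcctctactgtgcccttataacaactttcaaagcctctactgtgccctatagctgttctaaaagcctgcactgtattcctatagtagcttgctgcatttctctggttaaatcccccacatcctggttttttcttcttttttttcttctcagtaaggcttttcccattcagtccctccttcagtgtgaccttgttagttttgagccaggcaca

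Col16a1, a fibril-associated collagen, was also highest in committed oligodendrocyte precursor-like nuclei. It had 50.3, 72.7 and 67.0 CPM over all nuclei, with ratios of 0.53 (0.40 to 0.67) and 0.42 (0.29 to 0.54). Within the committed oligodendrocyte precursor-like class it had 153, 147 and 185 CPM, and neither interval excluded 0. The p300-ablated library was lower in oligodendrocyte-like nuclei (85.3 in control against 39.6 CPM, −1.11, −1.67 to −0.56) and higher in cluster-5-like nuclei (60.2 in control against 103 CPM, 0.78, 0.39 to 1.17). With the second seed the latter ratio was 0.42 (0.03 to 0.83). Col8a1, a short-chain collagen of vessel walls and corneal membrane, had 43.2, 50.8 and 63.1 CPM over all nuclei, with a p300 ratio of 0.55 (0.41 to 0.68). Within the RGC/PSC-like nuclei, which held 76.7% of its UMIs, it had 359, 308 and 294 CPM, and both ratios there were below 0, at −0.22 and −0.29. The RGC/PSC-like class held 423, 359 and 771 nuclei.

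In control the transmembrane collagens had their highest levels in different cell types. Col23a1 (11:51289920-51583918, plus strand) was highest in astrocyte-like nuclei, at 41.8 CPM, which held 164 of its 290 control UMIs. It had 17.8, 9.81 and 8.85 CPM over all nuclei, with ratios of −0.86 (−1.17 to −0.55) and −1.01 (−1.29 to −0.73). Both intervals included 0 outside the astrocyte-like class, with ratios of −0.05 and −0.20, and in RGC/PSC-like nuclei it had 18.6, 18.4 and 17.6 CPM. Its low level in the ablated libraries was thus found only in sums that include the astrocyte-like nuclei of control.

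Col25a1 (3:130131501-130599877, plus strand) encodes a neuronal transmembrane collagen known from amyloid plaques and from motor axon growth. It was highest in neuron-like nuclei in each library, at 29.2, 86.7 and 61.0 CPM from 9, 52 and 20 UMIs. Over all nuclei it had 5.52, 11.5 and 6.94 CPM, with a CBP ratio of 1.05 (0.67 to 1.45) and a p300 ratio of 0.33 (−0.07 to 0.73). A single neuron-like nucleus of the CBP-ablated library held 19 UMIs, and without the nucleus of highest count in each library the CBP ratio was 0.95 (0.54 to 1.37). Neuron-like nuclei numbered 101, 170 and 87.

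The matrix glycoproteins were Fn1, Tnc and Tnr. All 6 of their whole-library ratios were above 0, and 4 of the intervals excluded 0. A CBP interval above 0 was found for 30.4% of all genes counted, and a p300 interval above 0 for 22.3%. The shared sign held only over all nuclei, since the CBP ratio of Tnr was below 0 outside the astrocyte-like class. Fn1 (1:71585520-71653200, minus strand) encodes fibronectin, the ligand of many integrins. It had 57, 57 and 148 UMIs, or 3.49, 4.47 and 7.84 CPM, with a p300 ratio of 1.17 (0.72 to 1.63). The UMIs lay in few nuclei, since 95 of the 148 UMIs came from 27 glial progenitor-like nuclei, and 28 of them from 1 nucleus. Without the nucleus of highest count in each library the whole-library ratio was 0.97 (0.49 to 1.46). In glial progenitor-like nuclei the levels were 7.07 CPM in control (10 UMIs in 6 nuclei) and 46.7 with p300 ablated, a ratio of 2.72 (1.78 to 3.83), whereas in RGC/PSC-like nuclei they were 12.2 and 11.8 CPM. At resolution 1.2, 90 of the 95 p300-ablated UMIs lay in a cluster of 16, 10 and 100 nuclei, also named glial progenitor-like, whose leading genes include Fosb, Atf3, Klf4 and Junb, immediate-early genes that are induced by stimulation and stress, besides Fn1. Fn1 had 6 control UMIs there, and in the larger glial progenitor-like cluster it had 3.12, 4.58 and 2.60 CPM. The part of the size of that cluster in the Fn1 ratio was not tested.

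Tnc (4:63959785-64047015, minus strand) encodes tenascin-C, a protein of the stem cell niche of the SVZ. It had 19.8, 32.2 and 21.7 CPM, with a CBP ratio of 0.70 (0.49 to 0.92). Its classes differed in direction. In RGC/PSC-like nuclei Tnc had 79.3, 178 and 91.4 CPM, a CBP ratio of 1.17 (0.85 to 1.48) where 0.525% of genes were at least 2 times higher. In glial progenitor-like nuclei it had 51.6, 28.1 and 26.6 CPM, with ratios of −0.88 (−1.47 to −0.30) and −0.96 (−1.49 to −0.43).

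Tnr encodes tenascin-R, the tenascin of oligodendrocytes and perineuronal nets that crosslinks lecticans. It had 3705 CPM in control against 4142 with CBP ablated and 4980.0 with p300 ablated, with ratios of 0.16 and 0.43. In committed oligodendrocyte precursor-like nuclei it had 13237, 11982 and 14178 CPM and in NPC/OPC-like nuclei 7269, 6508 and 8059 CPM, so that within both classes the CBP-ablated library was the lowest and the p300-ablated library the highest. The ratios outside the astrocyte-like class were −0.22 and 0.05. The p300 interval lay above 0 in 7 of 9 classes. One of these 7 was the microglia-like class, where 31.2%, 58.7% and 52.8% of nuclei held a Tnr UMI at 702, 1254 and 1689 CPM. The source of such a share, in nuclei that should lack the transcript, was not tested, and the microglia-like ratio is not read as expression by microglia. The part of free RNA in the smaller Tnr differences was not tested either.

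**Figure D2:**
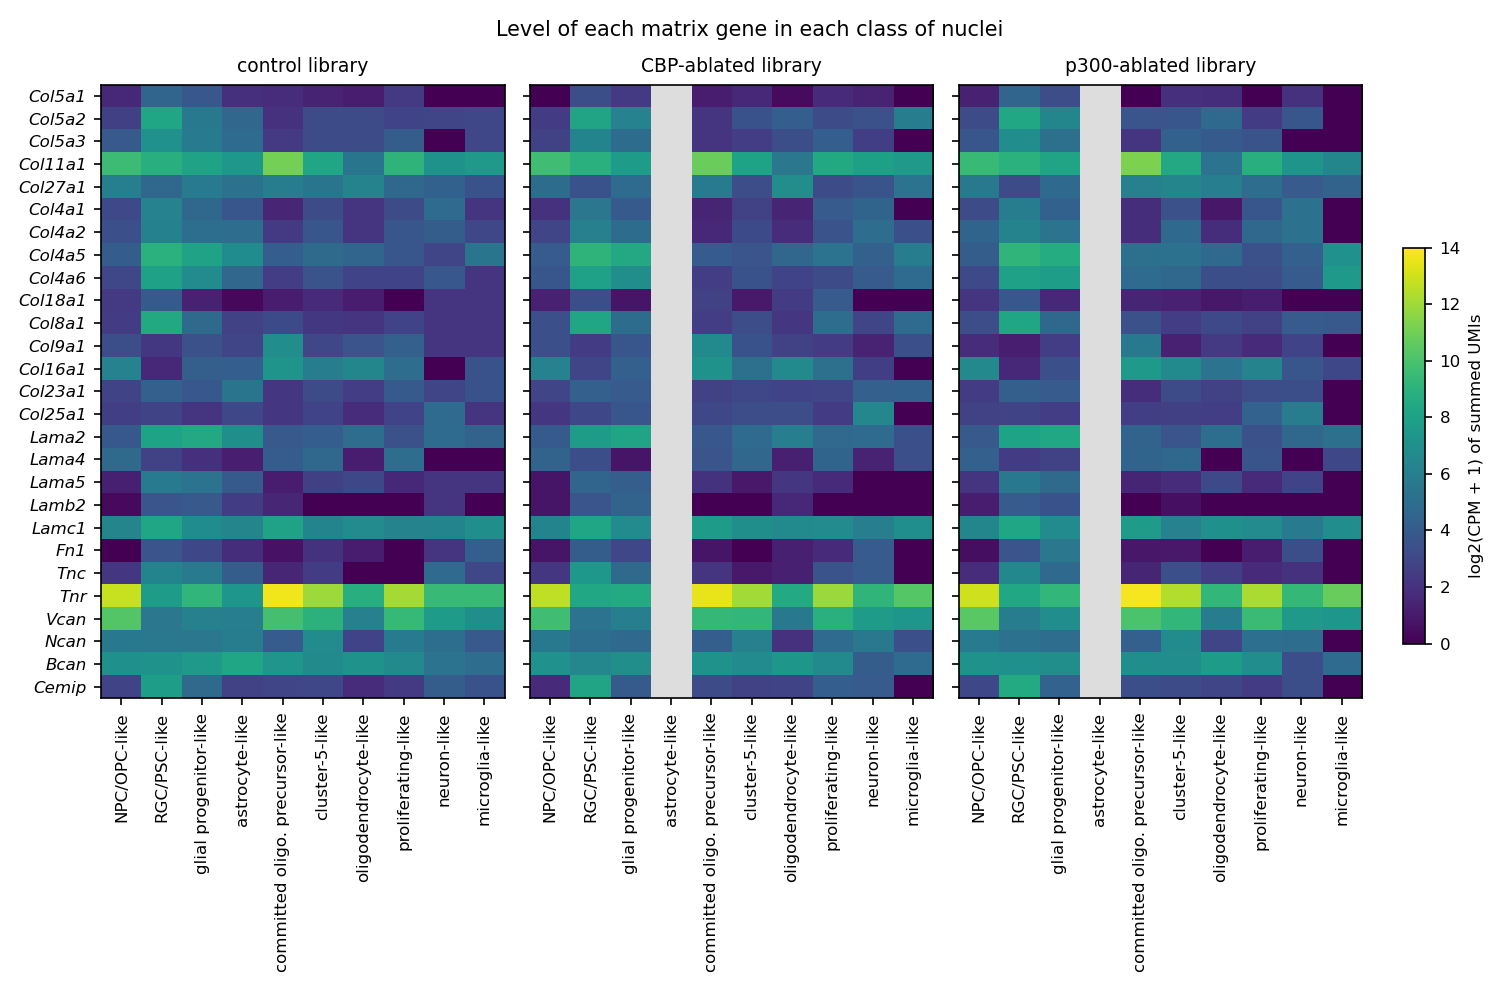
Level of each of the 27 matrix genes (rows) in each named class (columns) of the 3 libraries (panels), coloured by log2(CPM + 1) of summed UMIs; grey marks the astrocyte-like class, which had no nuclei of either ablated library. Rows are to be read across, since levels are not corrected for gene length, and the RGC/PSC-like column is bright for Col8a1 (359, 308 and 294 CPM) and Cemip (225, 284 and 381 CPM).

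The lecticans link hyaluronan to the tenascins. Vcan (13:89655312-89742509, minus strand), which encodes versican, a marker of oligodendrocyte precursors, had 479, 345 and 716 CPM. Its ratios were −0.47 (−0.53 to −0.42) and 0.58 (0.54 to 0.62), and directly between the ablated libraries the CBP-ablated level was lower, with a log2 ratio of −1.05 (−1.10 to −1.002). Vcan was highest in NPC/OPC-like nuclei, at 1198, 833 and 1351 CPM, and those nuclei were fewest in the CBP-ablated and most frequent in the p300-ablated library. Within the class the ratios were −0.53 (−0.62 to −0.43) and 0.17 (0.12 to 0.23). Committed oligodendrocyte precursor-like nuclei were alike, with ratios of −0.55 and 0.15, while in cluster-5-like nuclei the levels were 517, 612 and 619 CPM. In the Gpr149 cluster of the second seed the CBP ratio was 0.11 (−0.08 to 0.30), and in the NPC/OPC-like clusters of resolution 1.2 it was −0.61 and −0.44 with both intervals below 0. The second of these clusters also held cluster-5-like nuclei, most of them CBP-ablated.

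Ncan, neurocan, the lectican of neurons and astrocytes, had 50.4 CPM in control against 26.8 with CBP ablated and 48.6 with p300 ablated, a CBP ratio of −0.91 (−1.10 to −0.73). It was highest in cluster-5-like nuclei, at 106, 68.2 and 107 CPM, and it was level in NPC/OPC-like nuclei (49.6, 48.9 and 52.4 CPM). With the second seed the cluster-5-like nuclei had 121, 94.5 and 110.3 CPM (7 UMIs with CBP ablated) and the Gpr149 cluster 70.3, 61.6 and 75.8 CPM, a CBP ratio of −0.19 (−0.78 to 0.41). Bcan, brevican, the lectican of glia, had 179, 125 and 131 CPM, with ratios of −0.52 and −0.45. Astrocyte-like nuclei had 314 CPM of it, and the ratios outside that class were −0.13 (−0.23 to −0.03) and −0.06 (−0.15 to 0.04). Bcan was still lower in RGC/PSC-like nuclei of the CBP-ablated library (147, 86.6 and 129 CPM) and in glial progenitor-like nuclei of both ablated libraries (187, 118 and 122 CPM). In the CBP-ablated library, then, 3 of 3 lecticans with enough UMIs were below control with intervals below 0, as were those of 22.6% of all genes, with a median ratio of −0.52 over all nuclei and −0.83 outside the astrocyte-like class. In the p300-ablated library over all nuclei the interval of Vcan lay above 0 and that of Bcan below. The interval of Ncan included 0 (−0.05, −0.19 to 0.085). Of all genes counted there, 22.3% had an interval above 0 and 27.1% below.

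Cemip (7:83932857-84086502, minus strand) encodes a protein that binds hyaluronan and is needed for its depolymerisation. It had 565, 547 and 1484 UMIs, or 34.6, 42.9 and 78.6 CPM. The p300 ratio was 1.18 (1.04 to 1.33) and the CBP ratio 0.31 (0.14 to 0.48). These were, outside the astrocyte-like class, 0.84 (0.70 to 0.99) and −0.03 (−0.21 to 0.14), so that the p300-ablated library was above both others in either sum but passed 2 times only over all nuclei.

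Of the Cemip UMIs, 76.1% lay in RGC/PSC-like nuclei, at 225, 284 and 381 CPM there. The gene was among the 10 leading genes of that cluster although it was left out of the clustering. The next named class in all 3 libraries together, glial progenitor-like, had 20.7 CPM. Unnamed cluster 7 had 112, 53.7 and 129 CPM and unnamed cluster 11, nearly all of it called doublets, 101 CPM in control, 56.2 with CBP ablated and 168 with p300 ablated. Within RGC/PSC-like nuclei the ratios were 0.34 (0.13 to 0.54) and 0.76 (0.59 to 0.94). Thinned to 1500 UMIs, 14.2% (11.0% to 17.9%), 16.5% (12.8% to 20.7%) and 17.5% (14.9% to 20.4%) of the nuclei of that class held a Cemip UMI, and these intervals overlapped (22.5%, 27.0% and 29.3% before thinning). The thinned microglia-like shares were 1.56%, 0 of 22 and 0 of 30. Single nuclei held up to 44, 59 and 81 UMIs, and the p300 ratio over all nuclei without the highest nucleus of each library was 1.22. The p300-ablated library also had more RGC/PSC-like nuclei than control, 771 against 423, and with each class held at its control share the p300 ratio was 0.60.

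The sequence before the RefSeq start of Cemip, chr7:84086506-84086755 on GRCm38.p6 (minus strand), is shown because it differs in composition from the stretch printed for Col9a1, the gene with the opposite p300 difference. It was 75.2% GC and held GGGCGG 2 times, as CCGCCC, and TATAAA 1 time near its end. The stretch of Col23a1, the other gene at least 2 times lower with p300 ablated, was 66% GC. No relation between composition and the p300 ratio is read from these picked genes, and none was tested over the list.
Cemip: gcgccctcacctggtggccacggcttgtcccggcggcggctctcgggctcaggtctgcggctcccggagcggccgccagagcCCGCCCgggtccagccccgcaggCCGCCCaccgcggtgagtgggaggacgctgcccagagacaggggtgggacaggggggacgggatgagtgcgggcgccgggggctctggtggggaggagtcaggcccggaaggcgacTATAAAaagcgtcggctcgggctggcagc

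**Figure D3:**
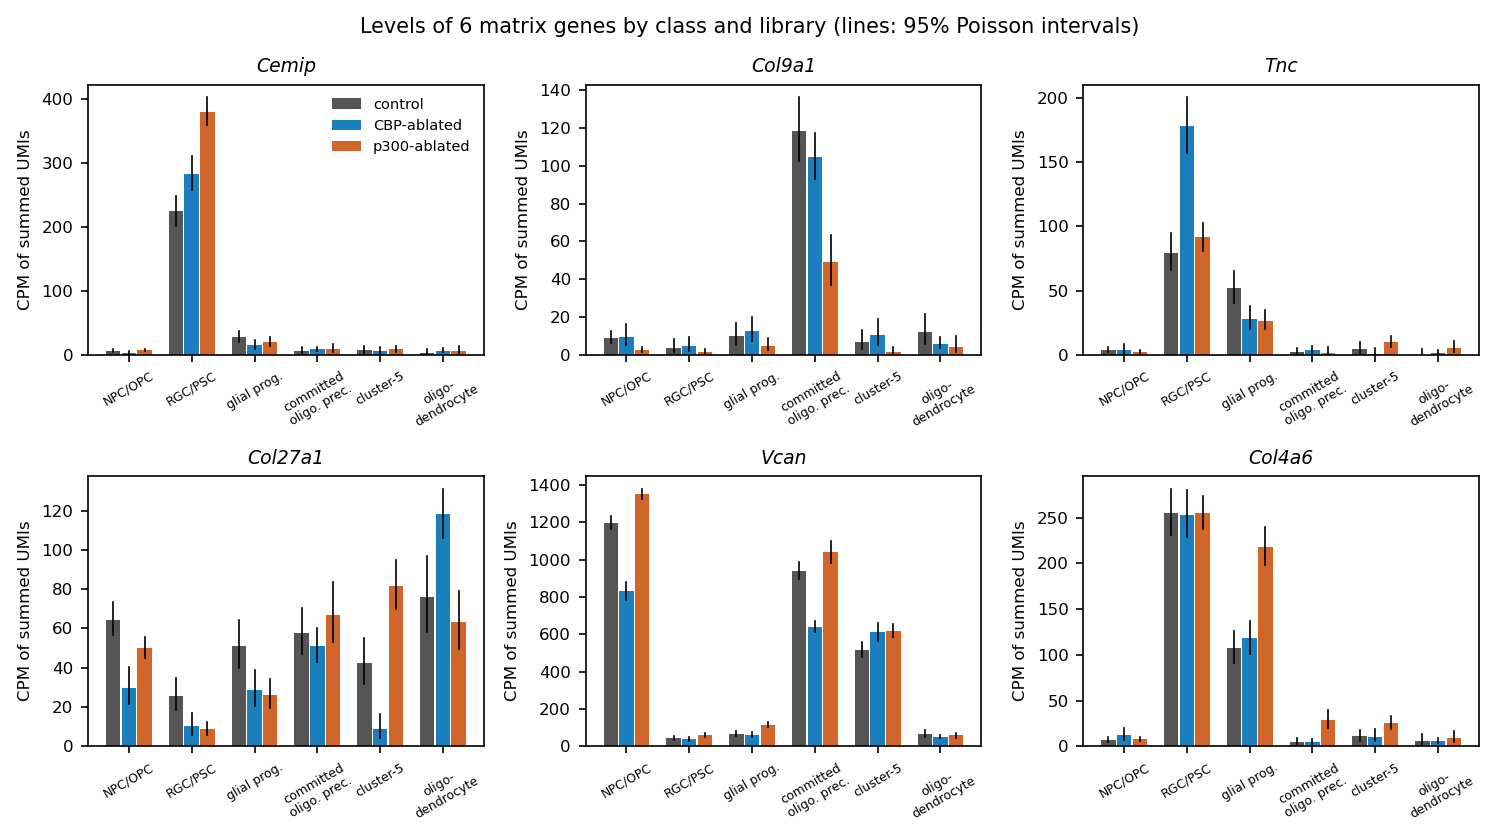
CPM of Cemip, Col9a1, Tnc, Col27a1, Vcan and Col4a6 (bars, axes from 0) in 6 cell classes of control (grey), CBP-ablated (blue) and p300-ablated (orange) nuclei, 1 library each, with 95% Poisson intervals as lines. Cemip is seen in RGC/PSC-like nuclei, at 225, 284 and 381 CPM, and Col9a1 in committed oligodendrocyte precursor-like nuclei, at 119, 105 and 49.0 CPM.

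The class of highest level was also found among the named classes with the 3 libraries summed. For 13 of the 27 genes it was the RGC/PSC-like class. For 4 it was the committed oligodendrocyte precursor-like class (Col9a1, Col11a1, Col16a1 and Tnr) and for 3 the glial progenitor-like class. Astrocyte-like and cluster-5-like nuclei had 2 each, and neuron-like, oligodendrocyte-like and NPC/OPC-like nuclei 1 each. The same count over all genes was not made, so no trait of the matrix genes is read from it. The summed basement membrane collagens had 906, 928 and 979 CPM in RGC/PSC-like nuclei and 434, 509 and 682 CPM in glial progenitor-like nuclei, against 44.9, 38.7 and 57.8 CPM in NPC/OPC-like nuclei. The summed lecticans ran the other way, with 240, 160 and 228 CPM in RGC/PSC-like nuclei and 1377, 1019 and 1545 CPM in NPC/OPC-like nuclei. This followed Vcan, which had 45.4, 40.0 and 60.7 CPM in the former and 1198, 832.5 and 1351 CPM in the latter. Bcan had 147.1, 86.6 and 129.1 CPM against 128.5, 136.6 and 139.3 CPM, so in control it was higher in RGC/PSC-like nuclei. Ncan differed less than Vcan, with 47.3, 32.2 and 38.0 CPM against 49.6, 48.9 and 52.4 CPM. Unnamed cluster 7 had 400.1, 537 and 539.5 CPM of the basement membrane collagens and unnamed cluster 11 had 233, 539.5 and 423 CPM, in part above glial progenitor-like nuclei.

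Because class shares differed between the libraries, the ratios were computed again with each class of an ablated library given its share of control UMIs. The classes used were those with at least 50 nuclei in both libraries. In the CBP-ablated library Col9a1 went from 0.61 to −0.09, Col16a1 from 0.53 to −0.03, Col23a1 from −0.86 to 0.20 and Col27a1 from 0.05 to −0.61. Tnr went from 0.16 to −0.12, Col11a1 from 0.19 to −0.09 and Col18a1 from 0.33 to −0.26, and Col4a2 went from −0.36 to 0.00. Col5a1 (−1.48), Lama5 (−0.99), Col25a1 (0.79) and Tnc (0.77) stayed on the same side. In the p300-ablated library Col8a1 went from 0.55 to −0.02, Vcan from 0.58 to 0.17, Tnr from 0.43 to 0.16 and Col23a1 from −1.01 to −0.28. Tnc (0.13 to −0.14), Col18a1 (0.39 to −0.045), Col5a3 (0.06 to −0.18), Lama4 (0.16 to −0.19) and Lamc1 (0.11 to −0.03) changed sign. Col9a1 (−1.39), Fn1 (1.05), Col4a2 (0.52), Col4a6 (0.51) and Col4a5 (0.41) kept their side. The astrocyte-like nuclei of control drop out of this sum in both comparisons, and unnamed cluster 11, with 35 CBP-ablated nuclei, drops out of the CBP comparison.

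**Figure D4:**
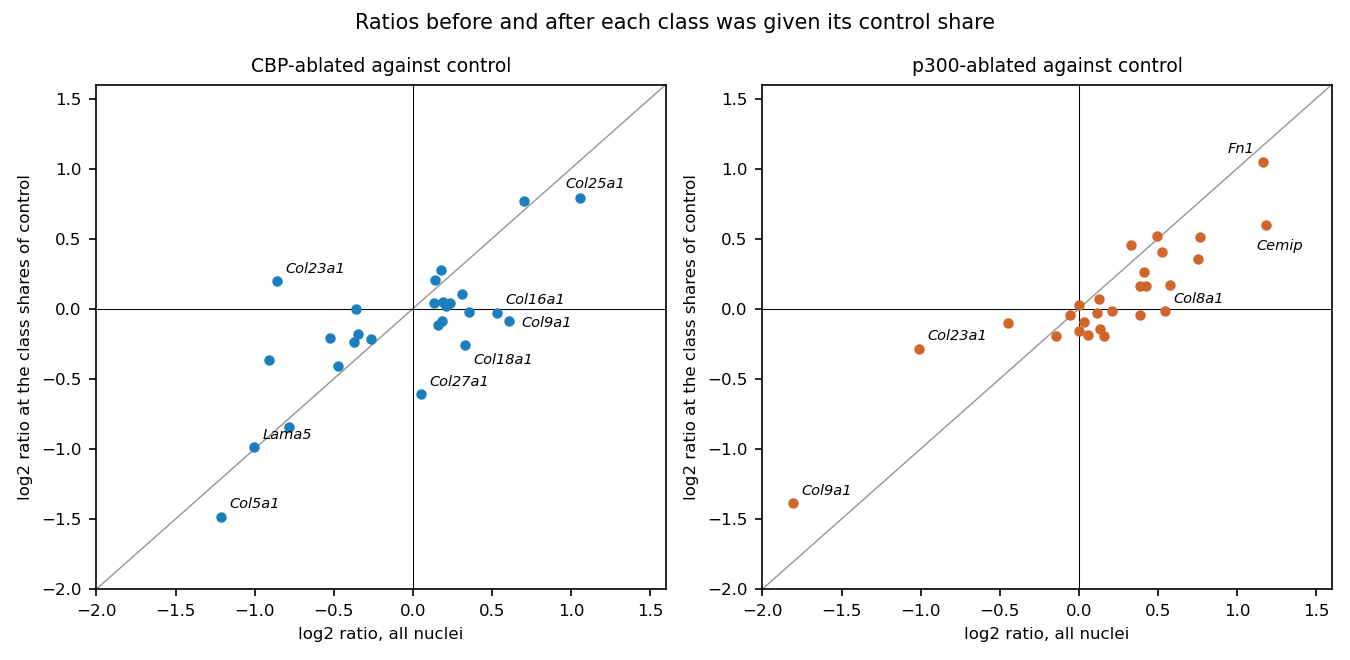
Log2 ratio over all nuclei (horizontal) against the log2 ratio with each class at its control share (vertical), 1 point per matrix gene, for the CBP-ablated (left) and p300-ablated (right) library; the diagonal marks equal values. Col23a1 moves from −0.86 to 0.20 in the CBP-ablated library, while Col9a1 stays low in the p300-ablated library at −1.39.

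Genes that build, modify or bind the matrix but are not on the list were counted from 6 lists. Of all genes counted, 2.89% were at least 2 times higher and 3.99% lower in the CBP-ablated library, and 0.694% and 2.12% in the p300-ablated library. Outside the astrocyte-like class these shares were 1.91% and 2.13%, and 0.362% and 0.943%. No result about a list is read from a count of 1 gene. Among 30 other collagen, laminin and basement membrane genes, 16 had enough UMIs for the CBP comparison and 17 for the p300 comparison. At least 2 times higher was 1 gene in the CBP-ablated library, Col20a1, a collagen that associates with fibrils (1.33, 185 against 73.6 CPM in control), and at least 2 times lower was 1 in the p300-ablated library, Col9a3, given above. Of 23 collagen modification and crosslinking enzymes, 18 were counted, and Loxl2, a lysyl oxidase, was the only one past 2 times, at −2.11 in the CBP-ablated library (2.90 against 12.6 CPM in control). Outside the astrocyte-like class Loxl2 was also above control in the p300-ablated library, at 1.30 (25.1 against 10.2 CPM in control).

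Of 14 hyaluronan synthases, link proteins and hyaluronidases, 6 were counted, and 1 was at least 2 times higher in each ablated library, Hapln2, a link protein of oligodendrocytes and nodes of Ranvier. It had 2.45, 17.4 and 8.11 CPM, with ratios of 2.83 and 1.73, where oligodendrocyte-like nuclei numbered 160, 487 and 193. The hyaluronan synthase Has2 was at −1.18 in the CBP-ablated library outside the astrocyte-like class. Of 20 chondroitin sulfate enzymes, 15 were counted, and Chst7, a sulfotransferase, was the only one past 2 times, at −1.51 in the CBP-ablated library.

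Of 18 matrix proteases and inhibitors, 13 were counted, with 1 higher and 1 lower in each library. In the CBP-ablated library these were Adamts4, an aggrecanase that cleaves lecticans, at 2.17 (50.05 against 11.1 CPM in control), and the inhibitor Timp4 at −1.32. In the p300-ablated library they were Adamts1, another aggrecanase, at 1.02 (46.35 against 22.9 CPM in control), and the membrane protease Mmp14 at −1.13, and neither was past 2 times once the astrocyte-like class was left out. Of 27 matrix receptors, 22 were counted in the CBP comparison, of which 1 was at least 2 times higher and 4 lower, beside 2.89% and 3.99% of all genes. The 3 largest of these ratios were those of the integrin chains Itga2 at 1.67, Itga7 at −1.21 and Itga6, of laminin receptors, at −1.13. With the astrocyte-like class left out, 1 was higher and 1 lower. None of 23 receptors was past 2 times in the p300-ablated library.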

How the data were processed

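The values come from single-nucleus RNA of 3 pooled neurosphere libraries. The authors deposited the count of UMIs per gene and nucleus without normalization; the submitters' processing notes name Cell Ranger 3.1, FastQC 0.11.9, Seurat 2.3.4 and GRCm38. Every deposited nucleus was kept, and the shallowest held 500, 501 and 502 UMIs. Counts were scaled to 10000 UMIs per nucleus, log-transformed and clustered with Seurat 5.3.0 (R 4.3.3, Matrix 1.6.5), using the union of the 1000 most dispersed genes per library (1617 genes, from which 13 matrix genes were removed), 20 principal components, 30 neighbours, a resolution of 0.6 and seed 1. A cluster was named when at least 60% of the markers of a list, and at least 3, had a UMI in 10% of its nuclei and 2 times the level of all other nuclei after adding 1 CPM; these limits were set with the clusters seen. Scrublet, in scanpy 1.11.5, called 191, 73 and 173 doublets at 0.8% for each 1000 nuclei, and they were kept in the main values. Unnamed cluster 11 held 172 of these among its 182 nuclei.

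Exact Poisson intervals of levels, Clopper-Pearson intervals of shares and conditional binomial intervals of ratios were obtained in scipy 1.17.1 (Python 3.11.15), tables in pandas 2.3.3 and numpy 2.4.6, and plots in matplotlib 3.10.9. A ratio entered a count with at least 100 UMIs in both libraries together. A class ratio needed 50 nuclei in each library and 20 UMIs, and a class background 100 UMIs per gene. All 35 genes were reported, and of each further list every gene past 2 times, at most 3. The genes, lists and marker lists were chosen with earlier results of these data known. The script was tested on simulated data. Positions are those of GENCODE M21. Settings tried instead were clustering at 0.3 and 1.2, another seed, matrix genes kept in the clustering, removal of called doublets, a minimum of 1500 UMIs per nucleus, centred ratios, a fold of 1.5, at least 20 UMIs in each library, subtraction of 5% free RNA and control class shares.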

Additional observations from a re-analysis of the deposited data

How the results depend on the processing

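The counts of genes past 2 times are small and moved by 1 gene. Higher in the CBP-ablated library over all nuclei, the count of 1 became 0 when ratios were centred on the median of all genes, 0 without called doublets and, in an alternative chosen after seeing the data, 0 without the nucleus of highest count in each library. Lower, the count of 2 became 1 without called doublets and 1 with nuclei of at least 1500 UMIs. In the p300-ablated library the higher count of 2 became 1 without the nuclei of highest count, and the lower count of 2 became 1 centred, 1 without called doublets and 1 with nuclei of at least 1500 UMIs, and 3 where at least 20 UMIs in each library were asked for instead (Nid1, −1.21, 21 against 42 UMIs). Outside the astrocyte-like class the lower count of the CBP-ablated library became 2 when centred. At a fold of 1.5 the CBP-ablated library had 3 higher and 5 lower over all nuclei, beside 7.90% and 9.97% of all genes counted. Outside the astrocyte-like class it had 2 higher and 6 lower, beside 6.03% and 7.15%. The p300-ablated library had 4 higher and 2 lower over all nuclei, beside 4.37% and 7.77%, and 3 higher and 1 lower outside, beside 2.28% and 4.1%. Lama5 (−1.001) and Col23a1 (−1.01) lay at the limit. Control class shares moved 30 of 54 single ratios. Clustering at 0.3 or 1.2, with a second seed or with the matrix genes kept moved no ratio outside the astrocyte-like class. These ratios depend on the clustering only through that class. It held 1276 to 1280 control nuclei and no nucleus of an ablated library in each setting, so they could hardly move. The second seed and resolution 1.2 divided the cluster-5-like class, and resolution 1.2 the NPC/OPC-like class, so that their CBP ratios depend on the clustering. Resolution 1.2 also divided the glial progenitor-like class, and the p300 ratios of Col4a6 and Fn1 there depend on it. The RGC/PSC-like, committed oligodendrocyte precursor-like and oligodendrocyte-like names each went to more than 1 cluster at that resolution. Ratios within those clusters are not given here. The class of highest level stayed the same for 24 to 27 of 27 genes in each library and alternative. No paired analysis was possible because each condition had 1 library. 8 genes had too few UMIs for a ratio.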
